A study of Mus musculus with 20 samples.

Results

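The genes described here encode the nuclear-encoded proteins of oxidative phosphorylation, the mitochondrial pathway that turns reduced cofactors and oxygen into ATP. They were chosen by name, as every gene of the table whose symbol begins with Nduf, Uqcr, Cox4, Cox5, Cox6, Cox7, Cox8 or Atp5, together with Sdha, Sdhb, Sdhc, Sdhd, Cyc1 and Cycs. That rule uses no measured value and gave 86 of the 12988 genes in the table. Of these, 35 encode subunits of complex I, 8 encode assembly factors of complex I (the Ndufaf genes), 4 belong to complex II, 9 to complex III, 1 is cytochrome c, 11 belong to complex IV and 17 to complex V. Ndufa4 was counted apart, since the protein was named as a complex I subunit and is now placed with complex IV. The 13 subunits encoded by mitochondrial DNA were not analysed here. None of the 86 genes passed the test in any of 5 comparisons of stress and sex, while their levels varied together from library to library within the groups.

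In oxidative phosphorylation, complex I (NADH dehydrogenase) and complex II (succinate dehydrogenase) pass electrons to ubiquinone, complex III passes them on to cytochrome c, and complex IV (cytochrome c oxidase) hands them to oxygen. Complexes I, III and IV pump protons across the inner membrane, and complex V (ATP synthase) uses the returning protons to make ATP. Neurons depend heavily on this pathway to restore the ion gradients that signalling uses up. Most subunits are built from nuclear genes, many of which are known targets of the transcription factors NRF1 and GABP and of the coactivators of the PGC-1 family.

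RNA was measured by sequencing in the adBNST of mice, the anterodorsal division of a small forebrain nucleus (the bed nucleus of the stria terminalis) tied to stress and anxiety. The comparison was between control mice and mice exposed to chronic variable mild stress (CVMS), a schedule of changing minor stressors that lasted 6 weeks, in each sex. The 4 groups were female control, female stressed, male control and male stressed, each of 15 mice aged 7 to 9 weeks at the start, and no strain or genotype is given in the labels. Each library was made from the pooled tissue of 3 mice and so is an average over them, with 20 libraries in total and 5 in every group. Stressed mice were sampled 1 hour after the last stressor, wet bedding, and all tissue was taken under ketamine.

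Library totals ran from 2707881 to 33595388 counts, and the 86 genes held between 0.685% and 0.885% of them. The lowest count of any of the 86 genes in a library was 12, for Ndufaf8. The tissue label was set against general markers of inhibitory and excitatory neurons, which do not single out the adBNST. The GABAergic genes Gad1, Gad2 and Slc32a1 stood at 628 to 757, 983 to 1248 and 265 to 342 CPM (the counts-per-million scale), while Slc17a7, a marker of cortical excitatory neurons, stood at 1.80 to 4.62 CPM. Slc17a6, a marker of thalamic and hypothalamic excitatory neurons, ranged from 10.02 to 72.2 CPM. Among genes known from this region, Crh stood at 11.4 to 25.7 CPM, Prkcd at 45.2 to 75.3 CPM and Penk at 511 to 1005 CPM. Prkcd was also listed here as a thalamic marker and Penk as a striatal marker.

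The 86 genes were abundant. Levels can be compared between genes only per length, so the counts were also scaled by annotated transcript length to TPM (transcripts-per-million), which sets every library to the same total. On that scale 81 of the 86 genes lay above the median gene of the table and 51 lay above 9 in 10 genes of the table. The median over the 86 genes was 198 TPM, from 16.7 ± 2.62 TPM (SD, n = 20 libraries) for Ndufaf6 to 1162 ± 49.5 TPM for Atp5b. The plot of levels by complex shows that complex IV had the highest median, 393 TPM, followed by complex V at 299 TPM, complex III at 242 TPM, complex II at 171 TPM, the complex I subunits at 153 TPM and the complex I assembly factors at 38.5 TPM. Transcripts of these genes were short, with a median of 759 nt against 2844.5 nt over the whole table, and 83 of the 86 were shorter than the median gene.

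**Figure D1:**
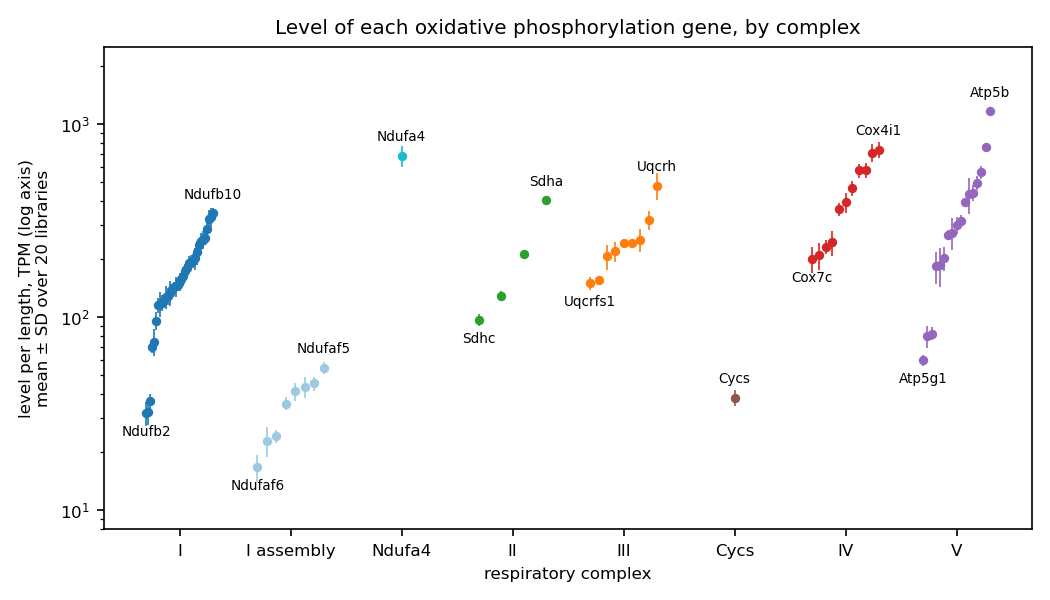
Level per length of each of the 86 genes (TPM on a log axis, mean ± SD over the 20 libraries), arranged by complex, with the lowest and highest gene of each complex named. Atp5b stood highest at 1162 TPM and the assembly factor Ndufaf6 lowest at 16.7 TPM.

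In complex I the levels per length ran from 31.9 ± 4.61 TPM for Ndufb2 to 345 ± 22.2 TPM for Ndufb10, both accessory subunits of the membrane arm. The annotated length of Ndufb2 (2413 nt) is set by a long transcript, which lowers its value per length. The catalytic core was represented by Ndufv1, which carries the site where NADH is oxidised, and by Ndufs1, which carries iron-sulfur clusters. Ndufv1 had mean levels of 103 ± 3.92, 103 ± 1.94, 103 ± 4.25 and 107 ± 5.55 CPM (SD, n = 5) in female controls, stressed females, male controls and stressed males. It did not pass the test in any comparison, and the values of Ndufs1 are given with the interaction below. Among the assembly factors, Ndufaf5, an enzyme that hydroxylates a core subunit, was the highest at 54.6 ± 4.09 TPM.

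Complex II is made of 4 subunits only. Sdha, the flavoprotein that oxidises succinate, was the highest at 402 ± 12.6 TPM and also one of the steadiest genes. Female controls had 445 ± 18.3 CPM, stressed females 438 ± 12.5 CPM, male controls 431 ± 15.3 CPM and stressed males 447 ± 20.7 CPM. Sdhb, the iron-sulfur subunit, had 89.1 ± 2.77, 93.3 ± 7.72, 90.7 ± 3.53 and 93.4 ± 6.16 CPM. Sdhc, a membrane anchor, was the lowest of the 4 at 96.7 ± 6.62 TPM. The median coefficient of variation over the 20 libraries was 6.15% in complex II. It was between 8.75% and 11.9% in complexes I, III, IV and V. Median transcript length was 1612 nt in complex II and 1308.5 nt in the complex I assembly factors. It was 535 to 838 nt in the complex I subunits and in complexes III, IV and V. Over all the genes described here, the rank correlation between transcript length and coefficient of variation was -0.685. The part of transcript length in the lower variation of complex II was not tested.

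For complex III, Uqcrh, a small hinge protein at the cytochrome c1 site, was the highest at 479 ± 76.6 TPM, and Uqcrfs1, the Rieske iron-sulfur protein, the lowest at 150 ± 12.1 TPM. Uqcrfs1 had 77.2 ± 6.29, 74.7 ± 5.12, 79.0 ± 5.21 and 77.4 ± 9.63 CPM in female controls, stressed females, male controls and stressed males. Uqcrc1, a core protein of the complex, had 154 ± 6.55, 154 ± 5.73, 146 ± 9.78 and 153 ± 11.6 CPM. Cyc1, the subunit that reduces cytochrome c, had 89.5 ± 5.19, 90.9 ± 3.33, 89.8 ± 3.20 and 87.8 ± 8.19 CPM. Cytochrome c itself, encoded by Cycs, stood at 38.2 ± 3.72 TPM, a value lowered by a long annotated transcript of 3123 nt.

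Complex IV was led by Cox4i1, the ubiquitous isoform of the regulatory subunit 4, at 733 ± 69.1 TPM, and Cox7c, a small membrane subunit, was the lowest at 200 ± 30.1 TPM. Cox8a followed Cox4i1 at 711 ± 73.7 TPM, Cox6a1 and Cox6b1 had 578 ± 51.5 and 574 ± 47.8 TPM, and Ndufa4 had 683 ± 85.2 TPM. Of the isoforms of subunit 7a, Cox7a2 had 243 ± 35.3 TPM and its relative Cox7a2l, which helps to join complexes III and IV, had 231 ± 19.6 TPM. These values differ by less than their spread over the libraries. Cox5b, an accessory subunit near the matrix side, had 136 ± 8.13, 136 ± 15.3, 124 ± 12.9 and 129 ± 16.7 CPM in female controls, stressed females, male controls and stressed males.

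Complex V held the widest range. Atp5b, the catalytic beta subunit of the F1 head, had 1162 ± 49.5 TPM, and Atp5a1, the alpha subunit of the head, had 759 ± 28.7 TPM. Atp5c1, the gamma subunit of the rotating stalk, had 394 ± 17.9 TPM. Of the 3 genes for subunit c, which forms the membrane ring, Atp5g3 was the highest at 497 ± 40.1 TPM, followed by Atp5g2 at 82.3 ± 6.28 TPM and Atp5g1 at 59.7 ± 3.81 TPM. The length used for Atp5g1 (2675.5 nt) comes from a long transcript and lowers its value, and on the CPM scale, which ignores length, Atp5g1 had 60.4 CPM and Atp5g2 18.2 CPM. The mature proteins of these 3 genes are nearly identical, and many oxidative phosphorylation genes have processed pseudogenes, so reads shared between copies could have been split or lost in the counting.

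Promoter sequences from RefSeq (build GRCm38.p6, from 250 bases before to 50 after the start) were found for 72 of the 86 genes. They were searched on both strands for the motif of NRF1 (GCGCA and GCGC, separated by any 1 base), a known regulator of respiratory chain genes. It was found in 18 of the 72 promoters (25%), against 11.2% of the 10338 genes of the table with a promoter and 4.60% of all 32851 promoters. The motif of YY1 (AAGATGGC) was found in 11 of them (15.3%, against 5.16% of the genes of the table), that of GABPA (CCGGAAG) in 19 (26.4%, against 19.1%) and that of ERRA (TCAAGGTCA) in 2 (2.78%, against 0.358%). The genes with an NRF1 match came from all 5 complexes, among them Ndufa5, Sdha, Uqcrc1, Cox6a1 and Atp5c1. A match describes the letters of the promoter and does not show that the factor binds there.

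Windows of 100 bases that end at the base before the transcription start are shown for genes that differ widely in how closely they followed the rest of the pathway, as described below. Capitals mark the NRF1 motif, and each sequence is written 5′ to 3′ on the strand of the gene, which is the minus strand for all of them. They lie at chr13:74350241-74350340 (Sdha), chr9:50603850-50603949 (Sdhd), chr6:24527691-24527790 (Ndufa5) and chr5:108434400-108434499 (Atp5k).
Sdha: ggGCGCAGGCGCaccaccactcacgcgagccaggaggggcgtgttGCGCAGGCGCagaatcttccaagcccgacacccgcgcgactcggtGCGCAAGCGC
Sdhd: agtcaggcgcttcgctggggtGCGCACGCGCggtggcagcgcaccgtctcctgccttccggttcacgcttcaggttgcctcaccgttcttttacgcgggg
Ndufa5: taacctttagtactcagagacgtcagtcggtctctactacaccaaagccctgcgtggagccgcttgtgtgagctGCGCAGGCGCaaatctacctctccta
Atp5k: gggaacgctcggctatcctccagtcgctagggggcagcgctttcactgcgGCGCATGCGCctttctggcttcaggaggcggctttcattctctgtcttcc
The Sdha window holds 3 matches and the others 1 each.

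The first comparison asked whether stress changed these genes in females. None of the 86 genes was called at an adjusted p under 0.05 by edgeR's quasi-likelihood test, where 0% of the 12988 genes of the table were called, and none was called by DESeq2 or limma-voom. At an unadjusted p under 0.05, 5 of the 86 had lower values in stressed females and 0 had higher values, against 3.83% and 3.69% of all genes. The estimates lay below 0 for 80 of the 86 genes, where 50.5% of all genes did, and their median was -0.09 on the log2 scale against 0.00 for all genes. The 86 genes varied together between libraries, as described below. Counts of signs here and in the other comparisons are therefore not counts of independent results. The sizes were small, from -0.23 for Cox7c to 0.06 for Sdhb, and 0 of the 86 genes had female groups that did not overlap, against 0.562% of all genes lower and 0.654% higher without overlap.

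The gene with the smallest p in that comparison was Ndufb5, an accessory subunit of the complex I membrane arm. Female controls had 66.5, 69.0, 74.1, 74.5 and 71.6 CPM, and stressed females had 71.4, 62.3, 67.3, 53.5 and 56.7 CPM. Replicates 2, 4 and 5 of the stressed females lay below every control, and the groups overlapped. The log2 fold change was -0.19 (SE 0.08, edgeR adjusted p = 0.630). Cox5a, a matrix-side subunit of complex IV, had 88.1, 89.3, 97.6, 85.1 and 95.1 CPM without stress and 82.4, 82.6, 93.0, 72.8 and 79.2 CPM with stress, a change of -0.16 (SE 0.07, edgeR adjusted p = 0.641). Only replicate 3 of the stressed females was inside the range of the controls. Ndufa9, a subunit close to the ubiquinone channel, had 70.8, 68.3, 74.3, 77.9 and 80.0 CPM against 69.6, 68.7, 68.2, 66.1 and 67.0 CPM, a change of -0.12 (SE 0.05, edgeR adjusted p = 0.637). Cycs changed by -0.19 (SE 0.08, edgeR adjusted p = 0.644) and Ndufs1 by -0.09 (SE 0.04, edgeR adjusted p = 0.662), and neither passed.

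By complex, the estimates in females lay below 0 for 33 of 35 complex I subunits, 8 of 8 assembly factors, 3 of 4 genes of complex II, 6 of 9 of complex III, 11 of 11 of complex IV and 17 of 17 of complex V. The 6 genes above 0 were Cyc1, Ndufa10, Ndufa11, Sdhb, Uqcr11 and Uqcrc1, with the highest at 0.06. The 95% intervals of the fold changes, not adjusted for the number of genes, lay within 1 log2 unit of 0 for all 86 genes and within 0.5 for 83 of them, and their median half-width was 0.18. The median of the 86 genes was -0.05 without female stressed replicate 4 or replicate 5 and -0.13 without female stressed replicate 3, and over all single libraries left out between 71 and 84 of the 86 estimates lay below 0. After each library's trend on transcript length and GC content was removed, the median was -0.05 and 74 of the 86 estimates lay below 0. The 4079 other genes with transcripts of at most 2123.75 nt, a limit that 90% of the 86 meet, had a median of -0.02, with 2413 of them below 0. Within that limit they were not matched to the 86 genes in length.

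Markers of several cell types differed in the same comparison. As log2 deviations from the gene means over all libraries, neuronal markers averaged 0.03 ± 0.07 (SD, n = 5) without stress and -0.01 ± 0.04 with stress. GABAergic markers averaged 0.01 ± 0.04 and -0.04 ± 0.04, and astrocyte markers 0.05 ± 0.06 and -0.01 ± 0.12. Thalamic and glutamatergic markers also averaged lower with stress. Choroid plexus (-0.10 ± 0.13 and 0.03 ± 0.14), striatal and region markers averaged higher. All 14 oligodendrocyte markers had estimates below 0 in stressed females, with a median of -0.25 and 8 of them at an unadjusted p under 0.05, and 10 of 11 microglial and 7 of 10 endothelial markers lay below 0 (medians -0.11 and -0.07). The endothelial markers summed to 300 to 338 CPM without stress and 296 to 320 CPM with stress. The summed level of the oligodendrocyte markers was 9304 to 13419 CPM without stress and 8770 to 10765 CPM with stress, and no marker was at 0 in any library. With the oligodendrocyte level of each library as a covariate, 78 of the 86 estimates lay below 0 and the median was -0.09. In tissue made of many cell types, fewer cells of a type and less RNA per cell cannot be told apart.

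**Figure D2:**
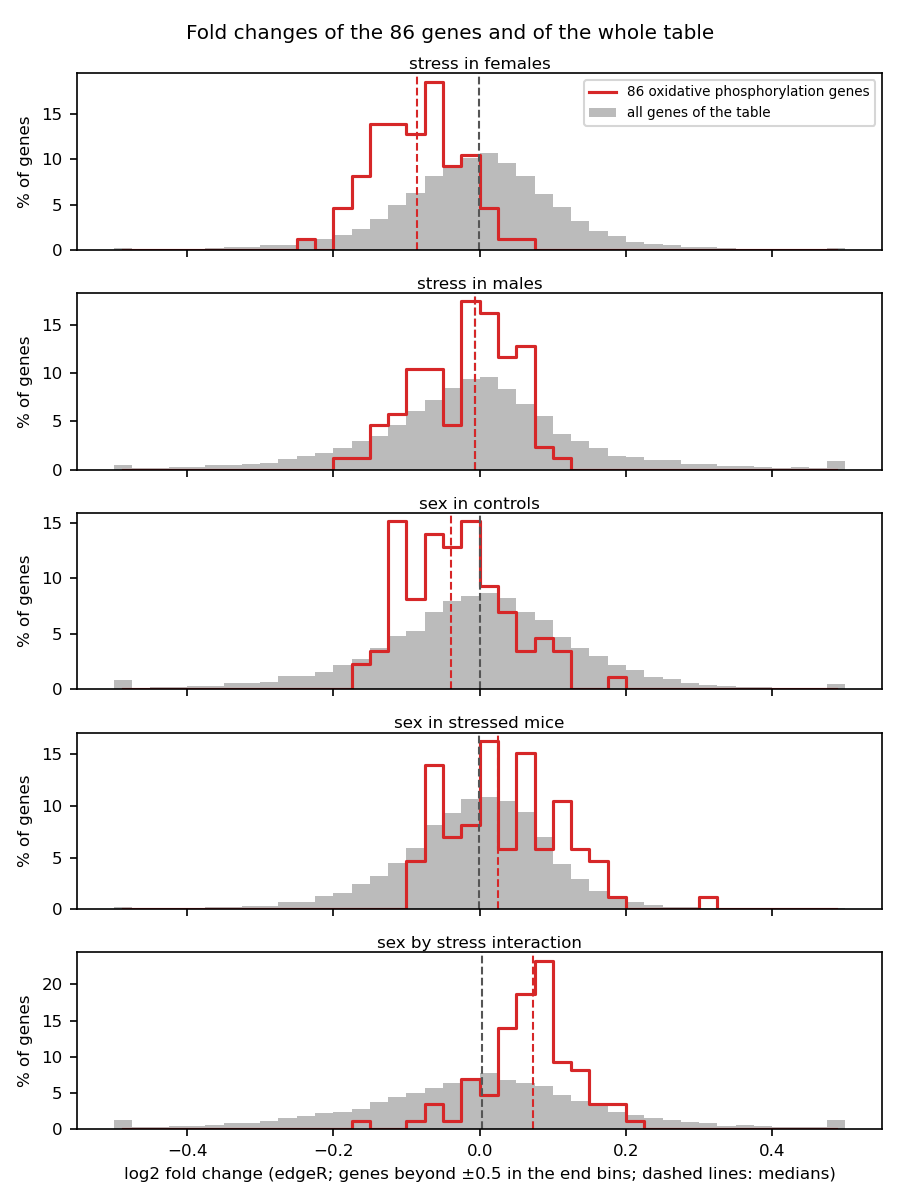
Distribution of log2 fold changes (edgeR) of the 86 genes (red outline) and of all 12988 genes (grey bars), as the percentage of genes in bins of 0.025, for the 5 comparisons, with dashed lines at the medians. The 86 genes lie to the left of the table in stressed females (median -0.09) and to the right in the interaction (median 0.07), and their spread is narrower than that of all genes.

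In males, stress was likewise followed by no call among the 86 genes in edgeR, DESeq2 or limma-voom. Of all genes edgeR called 0.0077%, while the alternative fits, DESeq2 and limma-voom among them, called between 1 and 303 genes. At an unadjusted p under 0.05, 1 gene was lower and 0 were higher, against 6.76% and 8.71% of all genes. Estimates lay below 0 for 48 of the 86 genes (52.4% of all genes), with a median of -0.01. That median took either sign when 1 library was left out. It was -0.07 without male stressed replicate 4 and 0.04 without male stressed replicate 2, and between 24 and 73 of the 86 estimates then lay below 0. With the length and GC trends removed the median was 0.02, and 35 estimates lay below 0.

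The gene with the smallest p was the assembly factor Ndufaf7, a methyltransferase needed to build the complex. Male controls had 40.8, 42.6, 43.3, 41.0 and 39.0 CPM, and stressed males had 34.7, 32.0, 37.5, 38.6 and 37.0 CPM. Every stressed male library lay below every male control, and Ndufaf7 was the only one of the 86 genes without overlap in this comparison (1.16% of all genes did not overlap and were lower, and 3.13% were higher). The change was -0.19 (SE 0.06) and did not pass after adjustment (edgeR adjusted p = 0.145). In females the same gene had 37.5 ± 3.92 CPM in controls and 37.9 ± 1.51 CPM with stress, and the difference between the stress effects of the sexes was -0.17 (SE 0.09, edgeR adjusted p = 0.542). Ndufs3, a core subunit of the matrix arm, had 46.2 ± 2.30 CPM without stress and 49.8 ± 4.82 CPM with stress, a change of 0.11 (SE 0.06, edgeR adjusted p = 0.347). Atp5a1 had 712 ± 19.5 CPM and 755 ± 43.0 CPM, a change of 0.08 (SE 0.05, edgeR adjusted p = 0.412).

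Male libraries also differed in markers of striatal neurons, a neighbouring population. All 14 striatal markers had estimates above 0 with stress in males (median 0.56, 14 of them at an unadjusted p under 0.05) and below 0 in male against female controls (median -0.59). Male controls had a summed level of 3028 to 3797 CPM, stressed males 4350 to 6523 CPM, female controls 3286 to 5822 CPM and stressed females 3213 to 6531 CPM, and none was at 0 in any library. With the striatal level as a covariate the median of the 86 genes was 0.04 for stress in males, where 14 estimates lay below 0, and again none of the 86 genes was called. The striatal levels of male controls and stressed males did not overlap, so this fit cannot tell stress in males apart from the striatal level. Of the microglial and endothelial markers, 2 of 11 and 1 of 10 had estimates below 0 with stress in males (medians 0.09 and 0.13).

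Between the sexes, the values are those of males relative to females. Among controls none of the 86 genes was called, and edgeR called 0.747% of all genes. Estimates lay below 0 for 61 of the 86 genes (49.9% of all genes), with a median of -0.04 that became -0.09 with the striatal covariate, where 75 estimates lay below 0, and -0.06 without male control replicate 5. Oligodendrocyte markers (14 of 14), microglial markers (10 of 11) and endothelial markers (9 of 10, of which 1 was called) also had estimates below 0 in male controls. The endothelial markers averaged 0.09 ± 0.07 (SD, n = 5) in female and -0.09 ± 0.08 in male controls as log2 deviations, without overlap. As summed levels they did overlap, at 300 to 338 CPM in female and 276 to 309 CPM in male controls. With the oligodendrocyte covariate 65 of the 86 estimates lay below 0. At an unadjusted p under 0.05, 1 gene was lower and 0 were higher, against 8.17% and 7.08% of all genes. That gene was Atp5d, the delta subunit of the F1 stalk, with 117, 120, 108, 121 and 122 CPM in females and 103, 105, 96.9, 104 and 114 CPM in males. Male replicate 5 lay above the lowest female library, so the groups overlapped, and the change was -0.16 (SE 0.07, edgeR adjusted p = 0.233). Atp5b changed by -0.10 (SE 0.05, edgeR adjusted p = 0.354), and Ndufs1 by -0.08 (SE 0.04, edgeR adjusted p = 0.366). Ndufs3 was the 1 gene whose control groups did not overlap (2.02% of all genes did not overlap and were lower, and 1.95% were higher), with 48.3 to 50.3 CPM in females and 43.0 to 48.2 CPM in males.

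Among stressed mice none of the 86 genes was called, against 0.077% of all genes. Estimates lay below 0 for 29 of the 86 (50.1% of all genes), with a median of 0.03 that was -0.04 without male stressed replicate 4, -0.00 without female stressed replicate 4 and 0.07 without female stressed replicate 3. The count below 0 was 56 without male stressed replicate 4 and 17 without female stressed replicate 3. At an unadjusted p under 0.05, 2 genes were higher in males and 0 were lower, against 3.71% and 3.35% of all genes. After removal of the length and GC trends 12 of the 86 genes were higher and 1 was lower at an unadjusted p under 0.05, against 3.13% and 3.42% of all genes in that same fit, and none of the 86 was called. Atp5g3 had 140, 126, 140, 114 and 111 CPM in stressed females and 135, 122, 141, 163 and 137 CPM in stressed males, a change of 0.16 (SE 0.07, edgeR adjusted p = 0.672). Ndufa9 changed by 0.12 (SE 0.05, edgeR adjusted p = 0.674). Groups overlapped for all 86 genes (0.77% of all genes did not overlap and were higher in males, and 0.5% were lower).

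The interaction asked whether males and females differed in their response to stress, as the male effect minus the female effect. No gene of the 86 was called, and 0% of all genes were. Estimates lay below 0 for 12 of the 86 genes (49.1% of all genes), with a median of 0.07 that was 0.01 without male stressed replicate 4, 0.03 and 0.04 without female stressed replicates 4 and 5, 0.12 without male stressed replicate 2 and 0.14 with the striatal covariate. The count below 0 ran from 5 to 40 of the 86 over single libraries left out, and 40 was reached without male stressed replicate 4. The smallest p belonged to Ndufs1, with 135, 138, 151, 148 and 148 CPM in control females, 137, 136, 140, 129 and 134 CPM in stressed females, 131, 134, 139, 140 and 136 CPM in control males, and 146, 144, 139, 145 and 137 CPM in males with stress. Stressed males 1, 2 and 4 lay above every male control, and stressed females 4 and 5 below every female control. The difference of the effects was 0.15 (SE 0.06, edgeR adjusted p = 0.377), and it was the 1 gene of the 86 at an unadjusted p under 0.05 with a positive difference (5.34% of all genes), while 0 had a negative one (5.03%). Ndufs3 followed with 0.16 (SE 0.08, edgeR adjusted p = 0.494). The interaction and the comparisons of sex and stress are built from the same 20 libraries, so their signs are not independent of each other. In the interaction all 14 striatal, all 14 oligodendrocyte, all 11 microglial and all 10 endothelial markers had estimates above 0, and with the oligodendrocyte covariate the median of the 86 genes was 0.08. The part of these markers in the values of the 86 genes was not tested, and the striatal covariate cannot be told apart from stress in males.

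Ndufa1, Ndufb11 and Cox7b lie on the X chromosome. In male against female controls they changed by -0.04 (SE 0.13), 0.10 (SE 0.09) and -0.02 (SE 0.14), and none passed (edgeR adjusted p = 0.941, 0.625 and 0.977). Ndufa1, a small subunit needed for complex I assembly, had 19.0 ± 2.14, 17.99 ± 3.27, 18.9 ± 1.27 and 18.6 ± 4.29 CPM in female controls, stressed females, male controls and stressed males. Ndufb11, a membrane arm subunit, had 43.1 ± 1.90, 41.4 ± 4.75, 46.3 ± 1.86 and 45.9 ± 6.65 CPM, and its difference between stressed males and stressed females was 0.16 (SE 0.08, edgeR adjusted p = 0.715). Cox7b had 83.6 ± 12.3, 76.98 ± 14.2, 82.9 ± 4.35 and 73.1 ± 18.8 CPM.

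While group means stayed close, single libraries moved as a block. Each gene was expressed as its log2 CPM minus its own mean over the 20 libraries, and the deviations of the 86 genes were averaged in each library. In male stressed replicate 4 all 86 genes lay above their own means, by 0.23 on average, and in female stressed replicate 3 it was 80 of 86, by 0.13. At the other end, 4 of 86 lay above their means in female stressed replicates 4 and 5, whose averages were -0.20 and -0.15, and 10 and 13 of 86 in male stressed replicates 2 and 1, with averages of -0.26 and -0.16. The averages per group were 0.04 ± 0.06 (SD, n = 5) in female controls, -0.03 ± 0.14 in stressed females, 0.02 ± 0.05 in male controls and -0.03 ± 0.19 in stressed males. The extremes on both sides were thus stressed libraries, and the difference in spread between stressed and control libraries was not tested.

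**Figure D3:**
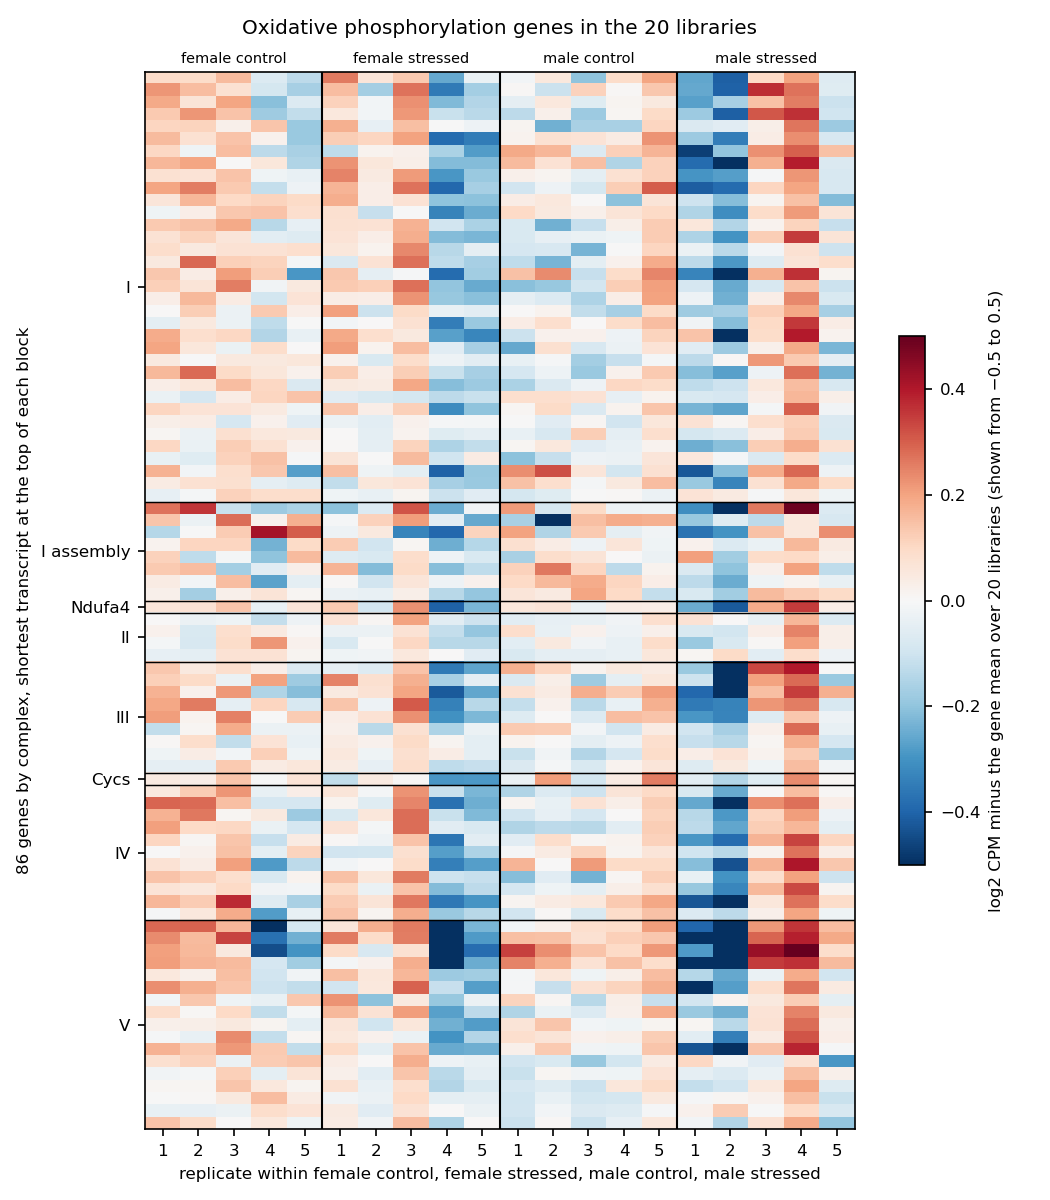
Log2 CPM of each of the 86 genes (rows, by complex, shortest transcript first) minus the gene's mean over the 20 libraries (columns, by group and replicate), from blue (lower) to red (higher), with values beyond 0.5 shown as 0.5. Several columns are mostly of 1 colour, with male stressed replicate 4 red in all complexes and male stressed replicate 2 and female stressed replicate 4 mostly blue.

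The same libraries stood out in individual genes. Stressed males had 183, 166, 233, 262 and 210 CPM of Cox4i1, against 197, 205, 202, 212 and 220 CPM in the male controls, so the stressed libraries lay on both sides of all controls. Ndufb9, an accessory subunit of complex I, had 58.7, 53.0, 71.1, 83.2 and 68.2 CPM in the stressed males and 62.0, 63.5, 63.8, 64.4 and 71.3 CPM in the male controls. Atp5e, the short epsilon subunit of ATP synthase, had 23.6, 16.99, 38.8, 44.1 and 30.5 CPM in the stressed males and 36.4, 33.8, 31.7, 30.8 and 33.4 CPM in the male controls. In contrast Atp5a1 had 749, 804, 735, 789 and 697 CPM in the stressed males and did not follow that order, nor did Sdha, with 442, 470, 424, 467 and 432 CPM.

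A trend on transcript length over the other genes of the table moved with these averages. In male stressed replicate 2 the genes outside the 86 were higher by 0.0639 on the log2 scale for each doubling of transcript length, and in female stressed replicates 4 and 5 and male stressed replicate 1 by 0.0536, 0.0535 and 0.0498. It ran the other way in male stressed replicate 4 (-0.0590) and female stressed replicate 3 (-0.0568). The 20 shortest of the 86 genes (321.5 to 550 nt) averaged -0.44 in male stressed replicate 2 and the 20 longest (1487 to 3632 nt) averaged -0.08, while in male stressed replicate 4 they averaged 0.30 and 0.15. Once the trends on length and GC were removed from each library, the averages of all 86 genes ran from -0.09 to 0.10, in place of -0.26 to 0.23, and the same 2 libraries of the stressed males stood at the ends.

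**Figure D4:**
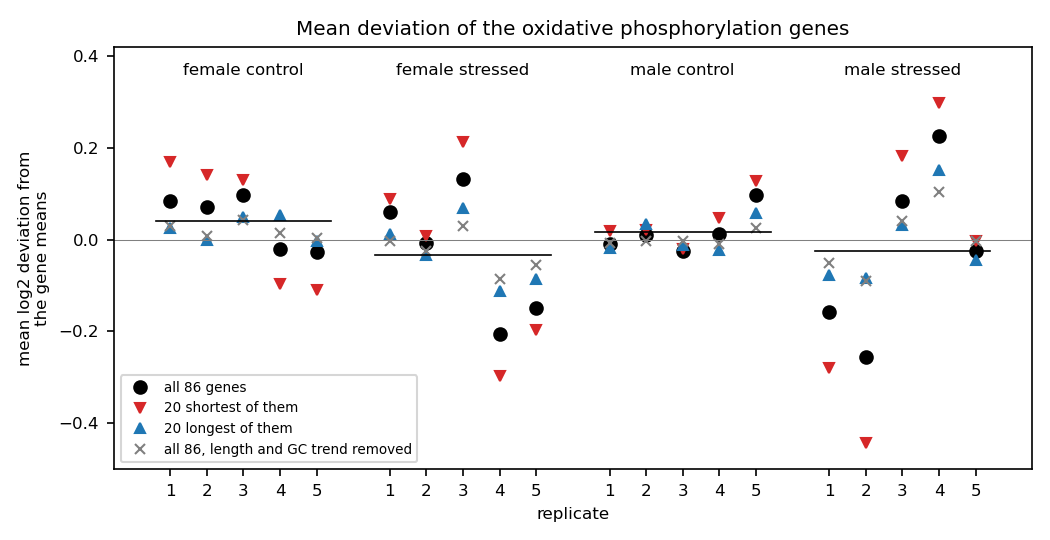
Mean log2 deviation of the 86 genes in each of the 20 libraries (black circles, with group means as lines), of the 20 shortest and the 20 longest of them (triangles), and of all 86 after removal of the trend on length and GC content (crosses). Male stressed replicate 4 is highest at 0.23 and male stressed replicate 2 lowest at -0.26, the shortest genes lie farthest from 0 in both, and the crosses lie between -0.09 and 0.10.

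To describe how closely each gene kept to the rest, its levels were correlated with the mean of the other 85 genes over the 20 libraries, after group means were removed. The libraries share depth, length trends and tissue makeup, so these values of r are descriptions. All 86 were above 0 and 73 were above 0.5. Ndufb9 followed the others most closely (r = 0.982), then Cox4i1 (0.980) and Ndufa4 (0.953). Before any trend on length was removed, Atp5a1 (0.00265), Sdha (0.0881) and Ndufs1 (0.105), which encode 3 of the large subunits, followed them least. Of the genes whose promoters are printed above, Ndufa5 had r = 0.925, Atp5k 0.871, Sdhd 0.792 and Sdha 0.0881. They were chosen to differ in r, so their spread gives no result about the NRF1 motif. After removal of the length and GC trends they had 0.649, 0.481, 0.553 and 0.249.

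These values differed with length. The 20 shortest genes had a median r of 0.894 (0.596 to 0.953) and the 20 longest 0.576 (0.00265 to 0.867), and the rank correlation between length and r over the 86 genes was -0.605. After removal of the length and GC trends it was 0.131. By then 73 of the 86 genes still had r above 0, but 39 rather than 73 were above 0.5. Ndufb9 (0.887) and Cox4i1 (0.859) remained high, while 13 genes were below 0, among them Atp5g2 (-0.509) and Cox6b1 (-0.380). Atp5a1, Sdha and Ndufs1 had 0.178, 0.249 and 0.133 after the removal, and so were no longer the genes that followed least. The 20 longest genes include Ndufb2, Atp5g1 and Cycs, whose lengths are set by long annotated transcripts. Before trend removal these had r of 0.717, 0.761 and 0.732, and the trend removal used the same lengths.

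**Figure D5:**
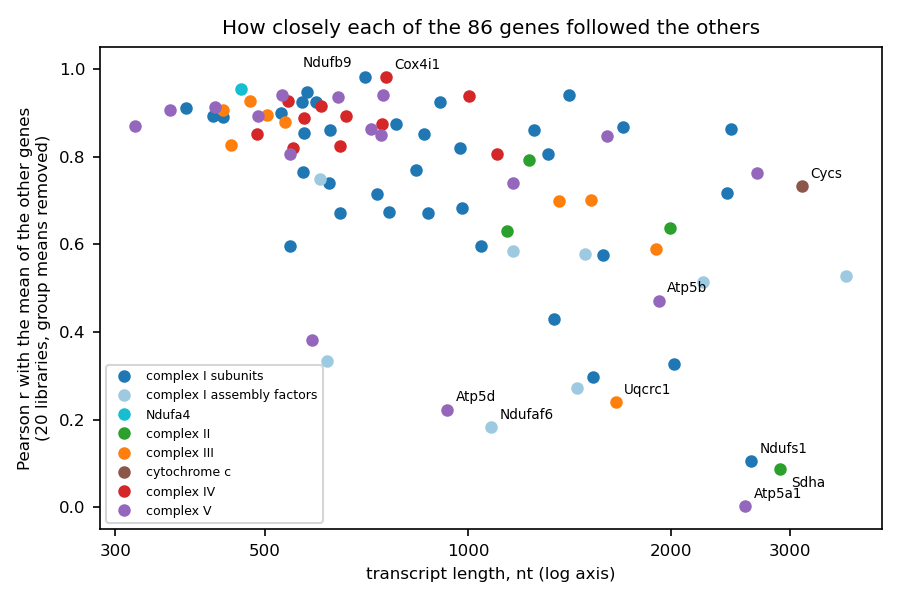
Pearson r of each of the 86 genes with the mean of the other genes (20 libraries, group means removed) against transcript length in nt on a log axis, coloured by complex. With no trend on length or GC removed, short genes lie near the top (median 0.894 for the 20 shortest) and Atp5a1, Sdha and Ndufs1 lie near 0.

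Between pairs of genes, the median r was 0.592 over the 3655 pairs of the 86 genes, with 95.7% of pairs above 0, against a median of -0.00293 between every 5th gene of the table. It was 0.802 within complex IV, 0.634 within complex V, 0.623 among complex I subunits, 0.573 within complex III, 0.536 within complex II and 0.282 among the complex I assembly factors. After removal of the length and GC trends the median over the 86 genes was 0.175, and 68.6% of pairs were above 0. The order of the complexes then changed, with 0.439 within complex II, 0.294 within complex III, 0.268 within complex IV and 0.218 within complex V. Complex I subunits had 0.141 and the complex I assembly factors 0.117 after that removal. Among other lists of genes, the cytosolic ribosomal proteins had a median of 0.861, the mitochondrial ribosomal proteins 0.347 and the tricarboxylic acid cycle genes 0.342, with 0.443 for glycolysis and 0.345 for the mitochondrial carriers and channels. After the same removal their medians were 0.670, 0.0898, 0.291, 0.349 and 0.194, so the last 3 lists stood below the 86 genes before it and above them after it.

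Those lists moved with the 86 genes to different degrees. In male stressed replicates 2 and 4 the 80 cytosolic ribosomal protein genes averaged -0.38 and 0.30 and the 78 mitochondrial ribosomal protein genes -0.17 and 0.16. The 16 genes of the tricarboxylic acid cycle averaged 0.04 and 0.07 in those 2 libraries, both above 0. The part of RNA quality or cell makeup in these differences between libraries was not tested.

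In the comparisons, the related lists gave few calls. With stress in females, 0 of 16 tricarboxylic acid cycle genes were called and 10 lay below 0 (median -0.01), 0 of 78 mitochondrial ribosomal protein genes were called and 51 lay below 0 (median -0.03), and 0 of 27 assembly factors of complexes II to V were called and 20 lay below 0 (median -0.05). For the 11 carriers and channels of the mitochondrial membranes 9 lay below 0 (median -0.04), and for 18 glycolytic genes 5 lay below 0 (median 0.02), again with 0 called. With stress in males 2 of 16 tricarboxylic acid cycle genes and 2 of 18 glycolytic genes lay below 0 (medians 0.04 and 0.06), also with 0 called. In male against female controls 15 of the 16 and 15 of the 18 lay below 0 (medians -0.06 and -0.06).

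Of 12 regulators of mitochondrial biogenesis, 1 was called in 1 comparison. Pprc1, a coactivator of the PGC-1 family, was higher in male than in female controls by 0.30 (SE 0.07, edgeR adjusted p = 0.0418). The call was kept in 8 of 20 alternatives, with adjusted p between 0.0140 and 0.136. It was lost in limma-voom (adjusted p = 0.0692), with the replicate block (0.0900), with the striatal covariate (0.0685), in a fit of only the groups compared (0.0515) and when any 1 control library was left out other than female replicate 1 or male replicate 5. Nfe2l2, which drives antioxidant genes, had a change of 0.29 (SE 0.06, edgeR adjusted p = 0.377) with stress in females and 0.18 (SE 0.06, edgeR adjusted p = 0.151) with stress in males, and did not pass. Ppargc1a, the best known coactivator of the family, changed by -0.02 (SE 0.09) and -0.05 (SE 0.09) in those comparisons (edgeR adjusted p = 0.994 and 0.859).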

How the data were processed

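The authors deposited 1 table of whole-number counts per gene symbol for 20 libraries, and the library kit kept strand, per the labels. STAR, featureCounts and mm10 are named in the submitters' processing notes, while the annotation, the strand setting and the treatment of reads with several matches are not given in the sources used here. Row totals were at least 1002, so lower genes were not analysed here, and 0 columns were left over.

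All 12988 genes were fitted with edgeR 4.0.16 (R 4.3.3), with TMM factors, filterByExpr (which kept all 12988), 1 mean per group and the two-sided quasi-likelihood test. P-values were adjusted over all genes of a comparison (Benjamini-Hochberg), and a call is an adjusted p under 0.05. CPM values use the TMM factors, and log2 CPM a prior count of 2. TPM and the length and GC trends (lowess, span 0.3) used GENCODE M21 lengths, found for 99.6% of genes. The common coefficient of biological variation was 8.83%. P-values measure the spread between pools of mice.

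The genes and lists were chosen with earlier results of these data known. Values of 1 of the 86 genes are not reported here. Named were the 3 genes with the smallest p where none was called, core subunits, isoforms, X-linked genes, the highest and lowest of each complex, and the genes closest to and farthest from the mean of the rest. Other genes and the printed promoters were named after their values were seen. Alternatives were DESeq2 1.42.0 or its size factors, limma-voom (limma 3.58.1), other filters, a replicate block, trend removal, marker covariates, only the groups compared, and single libraries left out. The fits were tested on simulated data. Python 3.11.15, scipy 1.17.1 and matplotlib 3.10.9 were also used.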

Additional observations from a re-analysis of the deposited data

Results flagged for a closer look

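In 4 of 104 groups of 5 libraries, over 24 named genes and 2 measures of each library, 1 library stood apart from the other 4 by more than 0.71 of the whole range, where chance alone flags about 1 in 20 groups. Atp5b was highest in female stressed replicate 3, at 901 CPM against 813 to 832 CPM in the others. Ndufs3 was lowest in female control replicate 2, at 48.3 CPM against 50.01 to 50.3 CPM. Sdhb was lowest in female control replicate 4, the shallowest library, at 84.3 CPM against 89.6 to 91.6 CPM, and highest in male control replicate 5, at 96.9 CPM against 88.3 to 90.3 CPM.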

How the results depend on the processing

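In each of the 5 comparisons 0 of the 86 genes were called under every alternative and with every single library left out. The smallest adjusted p of any of the 86 genes over the alternatives was 0.430 for stress in females, 0.0968 for stress in males, 0.123 for sex in controls, 0.267 for sex in stressed mice and 0.302 for the interaction, and with 1 library left out 0.395, 0.107, 0.140, 0.581 and 0.269. With 1 library left out the median log2 fold change ranged from -0.13 to -0.05, from -0.07 to 0.04, from -0.06 to -0.03, from -0.04 to 0.07 and from 0.01 to 0.12 in the same order. Over the other alternatives it ranged from -0.11 to -0.05, from -0.02 to 0.04, from -0.09 to -0.03, from 0.02 to 0.04 and from 0.06 to 0.14. The genes named for their smallest p kept their direction under all alternatives. Over the whole table the count of calls for stress in males was 1 in edgeR, 217 in DESeq2 and at most 303, and for sex in controls 97, with 48 to 327 over the alternatives.

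With the replicate block 0 of the 86 genes were called, and the smallest adjusted p was 0.772, 0.211, 0.323, 0.898 and 0.508. The labels give a replicate number and do not say that it pairs libraries. Same-numbered libraries had correlations of -0.47 to 0.24 over genes, and 2 of 20 matched their own number best. The filter at a mean of 10 CPM left 84 of the 86 genes to test. With 5 pools per group, true changes anywhere inside the intervals given remain possible.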
